A study of Homo sapiens with 2 samples.

Results

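Imprinted genes are the subject here, measured by RNA-seq in cells derived from the human embryonic stem cell line H1. A list of 34 such genes was matched by name against the 55797 genes of the files, and 33 were found; ZIM2 had no row under its own name. The live library came from H1 cells taken to Stage 6 of a stepwise pancreatic differentiation, a mixed culture that contains some insulin-expressing cells, and its RNA was isolated with the RNeasy kit from cells that were neither fixed nor sorted. The processed library came from cells of the same differentiation that were fixed in 4% paraformaldehyde, permeabilized, stained with antibodies and passed through the sorter with every cell collected, after which RNA was recovered with a modified RecoverAll protocol; the whole procedure is named MARIS. Each condition has 1 library, so no difference between them has a replicate check and no p-value is given. The comparison asks whether fixing, staining and sorting change how transcripts are represented. The way RNA was isolated differed along with these steps, so their parts cannot be told apart.

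An imprinted gene is transcribed mainly from the copy inherited from one parent, because a control region near the gene carries DNA methylation on only one parental chromosome. Many of these genes act on fetal growth, with paternally expressed members such as IGF2 promoting it and maternally expressed members such as CDKN1C restraining it. They lie in clusters in which a noncoding RNA and a group of coding genes often share one control region. The alleles cannot be told apart in these files, and each value sums both copies.

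Values are FPKM, fragment numbers scaled by transcript length and library depth, with the lower and upper bound that the authors deposited for each library, at a level that the sources used here do not give. Ratios are log2((processed FPKM + 1) / (live FPKM + 1)), and adding 1 makes the differences of genes with low FPKM appear smaller. The tables analysed here give no fragment numbers, but low FPKM values fell on steps, and the step of 1 fragment was 1.07 times as large in the processed library, which was therefore slightly shallower. Genes with an FPKM of at least 10 numbered 7917 in live and 7620 in processed cells. Among genes reaching 1 FPKM in each library, the median gene was at 0.932 times its live value in the processed library, a shift of -0.10 on the log2 scale against which the differences below are to be read. Markers of the pancreatic lineage were present. The 5 endocrine markers (INS, GCG, SST, CHGA and CHGB) summed to 2277 FPKM in the live and 2262 FPKM in the processed library. Most of this was CHGA, whose value in processed cells carries the status FAIL, with bounds from 0 to 4712. INS and SST were higher and CHGB was lower (6.56 and 3.16 FPKM) with separate bounds, and GCG overlapped. The 4 progenitor markers (PDX1, NKX6-1, SOX9 and PTF1A) summed to 182 and 188 FPKM. Transcripts listed as markers of other cell types were also present. The 5 hepatic markers summed to 961 and 1142 FPKM, the 5 mesenchymal markers to 77.2 and 65.9 FPKM, the 5 neural markers to 212 and 181 FPKM, the 5 pluripotency markers to 158 and 124 FPKM and the 5 trophoblast markers to 82.1 and 79.9 FPKM. LIN28A (119 and 88.7 FPKM), TUBB3 (149 and 129 FPKM) and KRT7 (43.9 and 45.6 FPKM) made up most of the pluripotency, neural and trophoblast sums. These sums alone therefore do not show that such cells were present. No marker of these lists was at 0 in either library. Of the 5 hepatic markers, 3 were higher and 1, APOB, lower in the processed library with separate bounds, and ALB overlapped. Of the 5 mesenchymal markers, 3 were lower, ACTA2 and PDGFRB by more than 2-fold, COL1A2 was higher and COL3A1 overlapped. Of the 5 pluripotency markers, 3 were lower, TDGF1 by more than 2-fold, and POU5F1 overlapped. NANOG was higher, with 1.27 FPKM in the live and 7.34 FPKM in the processed library. In the neural list, OLIG2 was higher and 4 markers were lower with separate bounds. In the trophoblast list, 1 was higher, 1 lower and 3 overlapped. For comparison, 27.5% of all genes averaging 1 FPKM or more were higher and 43.3% lower with separate bounds. Past 2-fold, with 1 added to each value, 5.87% of these genes were higher and 4.48% lower. The marker lists were not tested against these shares. The part of these cell types in the values of the imprinted genes was not tested.

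The imprinted genes spanned the full range of expression. In live cells 3 of the 33 reached an FPKM of 1000, 2 lay between 100 and 1000, 15 between 10 and 100, 10 between 1 and 10, and 3 below 1. In processed cells these numbers were 3, 3, 13, 9 and 5. Together the 33 genes held 1.75% (live) and 1.98% (processed) of the summed FPKM of all genes, and H19, DLK1, IGF2 and GNAS alone made up 90.4% and 91.8% of that amount. Of the 32 neighbouring pairs in the order of levels, 12 had overlapping bounds in live and 8 in processed cells, so that most neighbours in this order were separated by more than their bounds.

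**Figure D1:**
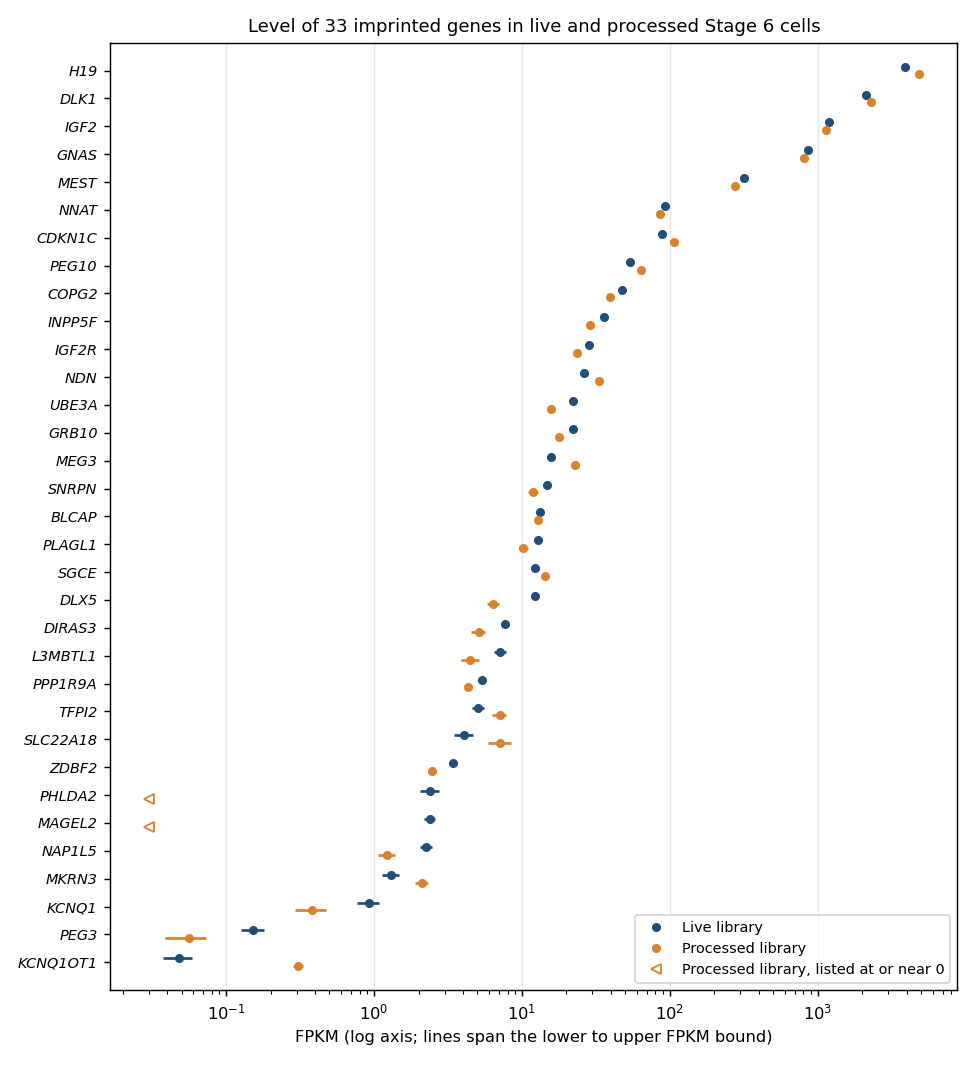
FPKM of the 33 imprinted genes in the live (blue) and processed (orange) library on a log axis, ordered by the live value, with lines from the lower to the upper bound; open triangles at the left edge mark values at or near 0. H19, DLK1 and IGF2 stand above 1000 FPKM in both libraries, and PHLDA2 and MAGEL2 are the 2 genes placed at the left edge in processed cells.

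Promoter sequences are shown first, because a feature that the list did not use can be read in them. ZFP57, a zinc finger protein that protects methylation imprints, recognises the 6 bases TGCCGC. RefSeq promoter windows of 300 bases on GRCh38.p14 were available for 21 of the 34 genes, 50 windows in all. At least 1 copy of TGCCGC on either strand was present in 21 of these 50 windows (42%), against 16.7% of all 35116 windows of the same length, and 2 or more copies in 12% against 2.75%. Windows of one gene can overlap almost entirely and were counted separately. Counted by gene, 13 of 21 listed genes and 5319 of all 27305 genes had a window with a copy, the listed genes having more windows each. Copies that overlap were also counted separately. Windows of the listed genes also held more CpG dinucleotides, with a median of 18.5 against 14, and the part of base composition in the difference was not tested. A match is a description of letters and not a binding site. The 5 genes with a window holding 2 or more copies are printed 5′ to 3′ in the direction of the gene, with TGCCGC or its reverse complement GCGGCA in capitals: MEST (chr7:130491835-130492134, plus strand), SNRPN (chr15:24954737-24955036, plus strand), NAP1L5 (chr4:88697780-88698079, minus strand), DIRAS3 (chr1:68050578-68050877, minus strand) and PLAGL1 (chr6:144008210-144008509, minus strand).
MEST: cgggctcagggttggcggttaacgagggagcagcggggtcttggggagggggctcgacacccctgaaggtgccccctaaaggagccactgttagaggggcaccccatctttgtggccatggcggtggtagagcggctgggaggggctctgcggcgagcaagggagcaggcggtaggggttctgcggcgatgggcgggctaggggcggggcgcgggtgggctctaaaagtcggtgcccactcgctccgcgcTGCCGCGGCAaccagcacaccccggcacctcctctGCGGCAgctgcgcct
SNRPN: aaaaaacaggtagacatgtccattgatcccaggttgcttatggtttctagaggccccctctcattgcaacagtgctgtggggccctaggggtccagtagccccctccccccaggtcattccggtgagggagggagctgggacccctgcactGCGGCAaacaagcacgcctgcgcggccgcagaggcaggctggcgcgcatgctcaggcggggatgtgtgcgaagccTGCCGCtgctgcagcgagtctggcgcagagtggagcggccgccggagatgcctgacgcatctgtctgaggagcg
NAP1L5: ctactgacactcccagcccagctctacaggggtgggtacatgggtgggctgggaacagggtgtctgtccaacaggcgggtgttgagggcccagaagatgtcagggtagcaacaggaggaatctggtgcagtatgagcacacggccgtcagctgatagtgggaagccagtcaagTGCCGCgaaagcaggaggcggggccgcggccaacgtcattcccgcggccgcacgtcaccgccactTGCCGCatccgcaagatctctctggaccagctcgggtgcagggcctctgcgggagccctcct
DIRAS3: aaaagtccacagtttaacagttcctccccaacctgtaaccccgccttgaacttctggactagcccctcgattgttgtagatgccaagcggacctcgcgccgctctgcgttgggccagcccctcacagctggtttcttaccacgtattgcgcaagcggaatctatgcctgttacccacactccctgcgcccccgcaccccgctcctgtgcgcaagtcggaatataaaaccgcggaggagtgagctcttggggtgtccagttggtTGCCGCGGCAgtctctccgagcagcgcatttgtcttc
PLAGL1: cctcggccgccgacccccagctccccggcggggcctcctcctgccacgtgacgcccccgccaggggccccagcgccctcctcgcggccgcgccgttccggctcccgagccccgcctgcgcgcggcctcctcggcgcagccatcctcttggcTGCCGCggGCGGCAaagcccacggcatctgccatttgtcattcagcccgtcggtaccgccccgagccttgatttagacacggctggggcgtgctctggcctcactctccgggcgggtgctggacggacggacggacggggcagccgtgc
The 5 genes with these windows had no common level, running from 319 FPKM for MEST to 2.26 FPKM for NAP1L5 in live cells. All 5 were lower in processed cells with separate bounds. At a mean FPKM of at least 1, so were 63.3% of the listed genes and 43.3% of all genes. ZFP57 itself was listed at 0.060 FPKM in live cells and at 0 in processed cells.

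A mean over both libraries of 1 FPKM or more was reached by 30 members. Of these, 0 lay above the 2-fold line in processed cells and 2, PHLDA2 and MAGEL2, lay below it. Of all 16159 genes that passed the same filter, 5.87% lay above and 4.48% below. Regardless of size, 20 of the 30 members had the lower value in processed cells, against 58.3% of all genes. PHLDA2 and MAGEL2 passed the filter only through their live values, so that they had to differ. Bounds were separate for 29 of the 30 members, with 10 higher and 19 lower in processed cells, or 33.3% and 63.3%. For all genes these shares were 27.5% and 43.3%. The median log2 ratio of the 30 members was -0.22, against -0.086 for all genes under the same filter. At a mean of 10 FPKM or more, 19 members remained. Their median was -0.085, and that of all 7802 genes at this level was -0.087. With 1 library each, fewer cells of a type and less RNA per cell cannot be told apart.

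**Figure D2:**
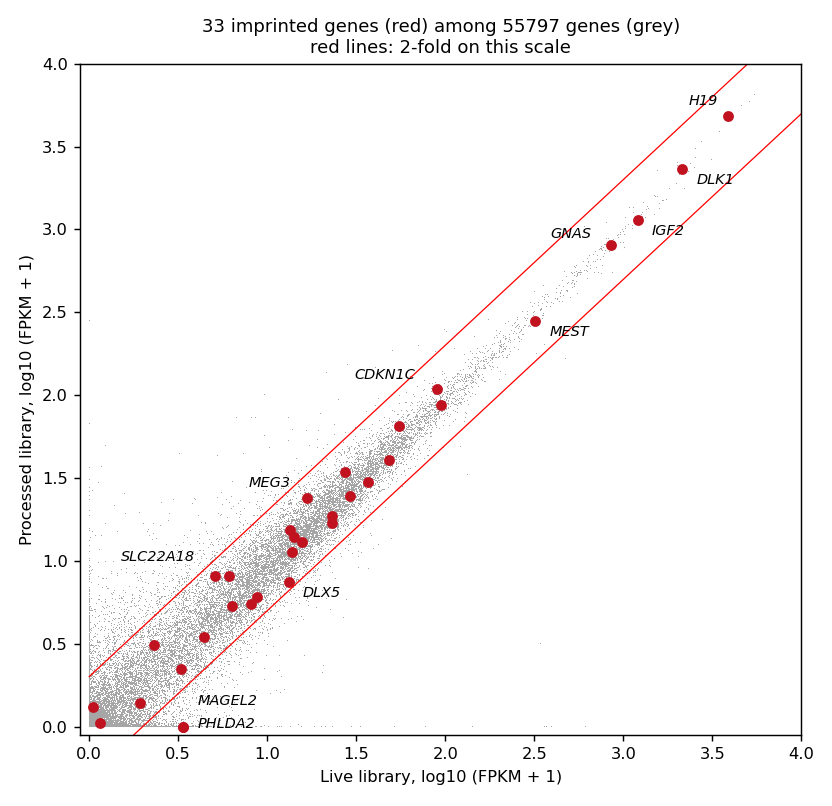
Processed against live values of all 55797 genes (grey) and the 33 imprinted genes (red) as log10(FPKM + 1), with red lines at a 2-fold difference on this scale. The imprinted genes lie between the lines except PHLDA2 and MAGEL2, which sit at 0 on the processed axis with live values of 2.38 FPKM.

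The 2 ligands of the list were among the highest members. Positions of genes are those of the files, on GRCh37. IGF2 (chr11:2150342-2182439), the insulin-like growth factor expressed from the paternal allele, had 1201 FPKM in live cells (bounds 1198 to 1205) and 1135 FPKM in processed cells (1132 to 1139), ranking 42nd and 46th among all genes. DLK1 (chr14:101192042-101201539), a transmembrane ligand related to those of the Notch receptors, had 2139 FPKM in live cells (2130 to 2148) and 2302 FPKM in processed cells (2292 to 2311), ranking 16th and 17th. DLK1 was thus 1.08-fold higher and IGF2 0.945 times its live value in processed cells. The direction for IGF2 depends on the scaling. Its log2 ratio was -0.081 as deposited, -0.049 with FPKM rescaled to the same sum and 0.020 after division of the processed values by the median ratio. DLK1 stayed higher, at 0.21, under the last of these. The summed FPKM of IGF2 and AC132217.4, a gene within it that is described with the overlapping genes, was higher in processed cells. FPKM is scaled by transcript length, so that sum does not pool fragments and sets no direction for IGF2.

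The 4 members that act in receptor signalling were all lower in processed cells with separate bounds, as were 63.3% of the 30 members and 43.3% of all genes. IGF2R, the receptor that takes up and clears IGF2, had 28.2 FPKM in the live and 23.7 FPKM in the processed library. IGF2 transcripts exceeded those of IGF2R 42.6-fold in live and 48.0-fold in processed cells on this per-length scale. GRB10, an adaptor that dampens insulin and IGF receptor signalling, went from 22.0 to 17.8 FPKM. INPP5F, a phosphoinositide phosphatase of which a short isoform is imprinted, went from 35.7 to 28.9 FPKM. GNAS, which encodes the stimulatory G protein alpha subunit and other transcripts from several promoters, had 855 FPKM in live cells (848 to 862) and 806 FPKM in processed cells (800.3 to 812). The log2 ratios of IGF2R, GRB10 and INPP5F lay between -0.30 and -0.24 and stayed negative under median scaling, while that of GNAS moved from -0.085 to 0.016.

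The 4 growth inhibitors did not move together. CDKN1C (chr11:2904443-2907111), an inhibitor of cyclin-dependent kinases expressed from the maternal allele, had 89.2 FPKM in live cells (87.2 to 91.2) and 107 FPKM in processed cells (105 to 109), a log2 ratio of 0.26. PLAGL1, a zinc finger transcription factor that arrests growth, was lower, with 12.8 FPKM in the live and 10.3 FPKM in the processed library. DIRAS3, a RAS-related GTPase that restrains growth, was also lower, with 7.71 and 5.09 FPKM. PHLDA2 (chr11:2949503-2950685), a pleckstrin homology domain protein known for limiting placental growth, had 2.38 FPKM in live cells (2.03 to 2.73) and was listed at 0, with both bounds at 0, in processed cells. By the step of 1 fragment and a transcript of 920 nt, the live value of PHLDA2 corresponds to about 178 fragments, and about 166 would be seen in the processed library at the same level. The bounds of these 4 genes did not overlap between libraries. Among all genes past the filter, 27.5% were higher and 43.3% lower with separate bounds. Both values of PHLDA2 carry the status OK. No fold is given for PHLDA2, because an exact 0 in such a table can still be a failed estimate.

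Of the 3 noncoding RNAs, H19 was the highest member of the list and the 4th highest of all genes in both libraries. H19 (chr11:2016406-2022700) had 3872 FPKM in live cells (3858 to 3886) and 4822 FPKM in processed cells (4802 to 4843), a log2 ratio of 0.32. MEG3 (chr14:101245747-101327368) had 15.7 FPKM in live cells (14.7 to 16.6) and 23.0 FPKM in processed cells (21.7 to 24.4), a log2 ratio of 0.53. Both are expressed from the maternal allele, opposite a paternally expressed ligand gene of the same cluster. KCNQ1OT1, a long antisense RNA transcribed from the paternal allele inside KCNQ1, had 0.048 FPKM in live cells (0.038 to 0.059) and 0.307 FPKM in processed cells (0.282 to 0.332). Without a pseudocount this is 6.35-fold, and on the row of 24669 bases it corresponds to about 118 and 700.0 fragments. KCNQ1OT1 did not pass the filter on low values, and its log2 ratio with the pseudocount was 0.32. H19, MEG3 and MEST also carry microRNA hairpins within their loci. The mature sequences on RefSeq are printed with the seed, bases 2 to 8, in capitals, to show which small RNAs these transcripts can give rise to (miR-675 from H19, miR-770 from MEG3 and miR-335 from MEST).
miR-335-3p: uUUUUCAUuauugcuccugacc
miR-335-5p: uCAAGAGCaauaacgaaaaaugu
miR-675-3p: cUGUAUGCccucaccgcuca
miR-675-5p: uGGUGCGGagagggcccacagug
miR-770-5p: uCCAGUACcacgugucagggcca
No seed was shared among these 5 sequences. The rows of MIR675, MIR770 and MIR335 were listed at 0 in both libraries with a status of LOWDATA, and poly-A selected libraries of this kind do not measure mature microRNAs.

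The 4 genes of the MAGE family and of ubiquitin ligation lie in the cluster on chromosome 15 whose paternal genes are lost in Prader-Willi syndrome. NDN, the MAGE protein necdin, was higher in processed cells, with 26.2 FPKM in live (25.4 to 27.0) and 33.4 FPKM in processed cells (32.5 to 34.4). MKRN3, a ring finger protein that holds back the onset of puberty, had 1.3 FPKM in live (1.13 to 1.47) and 2.10 FPKM in processed cells (1.90 to 2.30). UBE3A, the ubiquitin ligase that is imprinted in neurons and whose maternal loss causes Angelman syndrome, was lower, with 22.2 FPKM in live (21.7 to 22.7) and 15.8 FPKM in processed cells (15.4 to 16.3). MAGEL2 (chr15:23888691-23891175), a MAGE protein that binds ubiquitin ligases, had 2.38 FPKM in live cells (2.17 to 2.59) and a value of 5.4e-07 FPKM with an upper bound of 0.0093 in processed cells. Genes of the same cluster therefore differed in direction, NDN and MKRN3 higher and UBE3A lower, while the direction for MAGEL2 depends on a gene within it that is described with the overlapping genes.

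Of the 6 members past the filter with nuclear and nucleic acid related functions, PEG10 alone was higher in processed cells and 5 were lower, all with separate bounds. Among all genes, 27.5% were higher and 43.3% lower in this way. PEG10, a paternally expressed gene derived from a retrotransposon, had 53.8 FPKM in live (52.8 to 54.8) and 63.8 FPKM in processed cells (61.6 to 66.0). SNRPN, which encodes a splicing protein and lies at the control region of the chromosome 15 cluster, had 14.7 FPKM in the live and 11.9 FPKM in the processed library. DLX5, a homeobox factor whose imprinting is disputed, came closest to the 2-fold line among members above 0 in both libraries, with 12.2 FPKM in live (11.5 to 12.9) and 6.42 FPKM in processed cells (5.82 to 7.02), a log2 ratio of -0.83. L3MBTL1, a chromatin-compacting protein, had 7.14 and 4.48 FPKM. ZDBF2, a zinc finger gene, had 3.41 and 2.47 FPKM, and NAP1L5, related to nucleosome assembly proteins, had 2.26 and 1.23 FPKM. PEG3, a zinc finger protein, was close to silent, with 0.152 FPKM in live (0.125 to 0.179) and 0.056 FPKM in processed cells (0.039 to 0.073). The row named PEG3 spans chr19:57285930-57352097, whereas the later GENCODE release 44 places PEG3 at chr19:57321445-57352096 and ZIM2 at chr19:57285915-57352099, so that the deposited row covers both genes.

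The 9 remaining genes found by name encode membrane, secreted and trafficking proteins and others of varied function. MEST, a paternally expressed hydrolase-like protein of mesoderm, was the highest, with 319 FPKM in live (315 to 324) and 278 FPKM in processed cells (274 to 282). NNAT, neuronatin, a small membrane protein also made in beta cells, had 93.0 FPKM in the live and 85.8 FPKM in the processed library. COPG2, a coatomer subunit of vesicle transport, had 47.2 and 39.5 FPKM, and PPP1R9A, an actin-binding regulator of protein phosphatase 1, had 5.36 and 4.35 FPKM. Higher in processed cells were SGCE, epsilon-sarcoglycan, with 12.3 and 14.3 FPKM, TFPI2, a secreted protease inhibitor, with 5.07 and 7.07 FPKM, and SLC22A18, a transporter expressed from the maternal allele, with 4.08 FPKM in live (3.50 to 4.66) and 7.15 FPKM in processed cells (5.90 to 8.40). At a log2 ratio of 0.68, SLC22A18 had the highest positive value of the 30 members. BLCAP, a small membrane protein, was the 1 member whose bounds overlapped, with 13.2 FPKM in live (12.6 to 13.8) and 12.9 FPKM in processed cells (12.3 to 13.4). KCNQ1, a potassium channel subunit, was below 1 FPKM in both libraries, with 0.927 FPKM in live (0.770 to 1.08) and 0.383 FPKM in processed cells (0.292 to 0.473).

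Grouped by the parental allele that is usually expressed, 4 of the 5 maternally expressed members past the filter (H19, CDKN1C, MEG3 and SLC22A18) were higher in processed cells and PHLDA2 was lower. Of the 15 paternally expressed members, 5 were higher and 10 lower, all with separate bounds. Among all genes, 27.5% were higher and 43.3% lower in this way. The median log2 ratios were 0.32 and -0.20. The 10 members whose imprinting depends on tissue or isoform, or is disputed, had a median of -0.25, with TFPI2 alone higher, BLCAP overlapping and 8 lower with separate bounds. With the processed values divided by the median ratio, the medians were 0.42, -0.099 and -0.16. The groups are small and were not tested against each other, and the 5 maternally expressed genes lie in 3 neighbourhoods of 2 chromosomes. Of the paternally expressed members counted as lower, the direction for IGF2 depends on the scaling and that for MAGEL2 on an overlapping gene. Among members below the filter, KCNQ1 (maternal) was lower, KCNQ1OT1 (paternal) higher and PEG3 (paternal) lower, all with separate bounds.

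**Figure D3:**
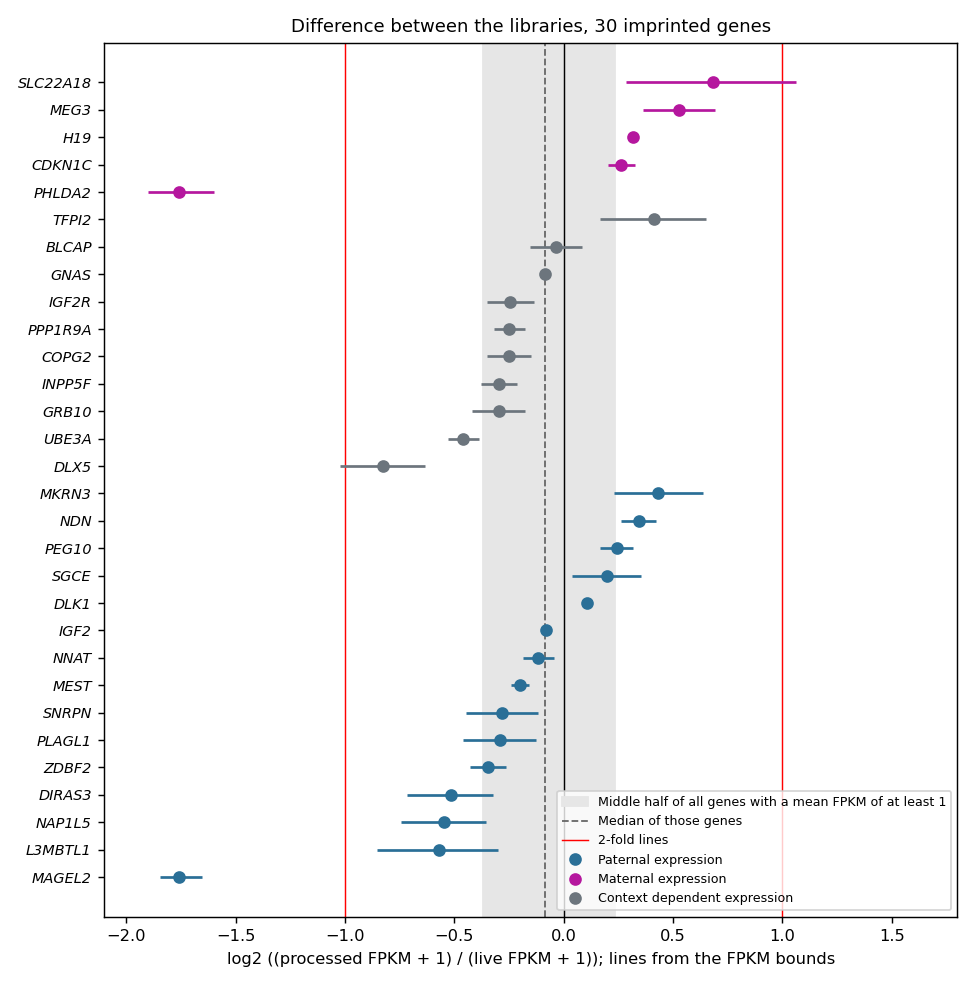
log2((processed FPKM + 1) / (live FPKM + 1)) of the 30 imprinted genes past the filter on low FPKM, coloured by the allele usually expressed; lines span the ratios that the FPKM bounds allow. The grey band is the interquartile range of all genes with the same filter, from -0.37 to 0.24, the dashed line their median, and the red lines mark 2-fold; PHLDA2 and MAGEL2 lie beyond the lower line.

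Members that share a control region were set side by side. In the H19 and IGF2 pair, which a methylation-sensitive insulator keeps on opposite alleles, H19 exceeded IGF2 3.22-fold in live and 4.25-fold in processed cells. In the DLK1 and MEG3 pair, DLK1 exceeded MEG3 136-fold in live and 100.01-fold in processed cells, as both were higher in processed cells and MEG3 more so. PEG10 and SGCE start 115 bases apart and are transcribed away from each other, and their ratio was 4.36 in live and 4.47 in processed cells. MEST and COPG2 run towards each other and overlap by 45 bases at their ends, and their ratio was 6.75 and 7.03. NNAT lies within an intron of BLCAP, on the other strand, and their ratio was 7.05 and 6.67. The ratios of the last 3 pairs thus differed less between libraries than those of the first pairs. In the cluster of CDKN1C the maternal members CDKN1C and SLC22A18 were higher and KCNQ1 and PHLDA2 lower in processed cells.

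Another gene at a mean of 1 FPKM or more overlapped 12 of the 30 members. Of these 12, 10 were lower in processed cells with separate bounds, 1 was higher (MKRN3) and 1 overlapped (BLCAP). Of the 18 members without such an overlap, 9 were higher and 9 lower, and their median log2 ratio was -0.069. Among all genes under the same filter, 30.3% of those with an overlap were higher and 40.1% lower with separate bounds. Of those without, 26.0% were higher and 45.1% lower, with a median log2 ratio of -0.10. Whether the libraries kept strand is not stated in the sources used here, so fragments of genes on opposite strands cannot be told apart.

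Some overlapping genes were higher in the library in which the member was lower. AC124309.1 (chr15:23888695-23890979), which lies wholly within MAGEL2 on the same strand, had 0.178 FPKM in the live and 5.85 FPKM in the processed library, the library in which MAGEL2 was near 0. Both values of AC124309.1 carry the status LOWDATA, and its bounds, 0 to 1.10 and 0 to 11.0, overlap. The sum of MAGEL2 and AC124309.1 was 2.56 FPKM in the live and 5.85 FPKM in the processed library, a log2 ratio of 0.94, so that the direction for MAGEL2 depends on whether the fragments of AC124309.1 are counted with it. RP1-138B7.5 (chr20:42178029-42179589), on the other strand within L3MBTL1, had 0.563 FPKM in the live and 4.41 FPKM in the processed library, where L3MBTL1 was lower. The summed FPKM of the pair was 7.71 and 8.88, higher in processed cells. FPKM is scaled by the length of each transcript, so this sum does not pool their fragments. RP11-73C9.1, on the other strand within MKRN3, had 0.735 and 2.57 FPKM, higher in processed cells as MKRN3 was. On the log2 scale with the pseudocount, these 3 of the 11 overlapping genes outside the list lay above the 2-fold line. Of all genes past the filter, 5.87% did. Each of the 3 was below 1 FPKM in live cells and passed the filter only through its processed value, so that they had to differ.

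The remaining overlaps included genes of high level. AC132217.4 (chr11:2150351-2151194), at the 3′ end of IGF2 and on the same strand, had 598 FPKM in the live and 1027 FPKM in the processed library. The ratio of IGF2 to AC132217.4 was 2.01 in live and 1.11 in processed cells, and fragments of the pair cannot be assigned with certainty. The sum of the pair was 1799 and 2162 FPKM, a log2 ratio of 0.26, so that the sum was higher in processed cells, whereas IGF2 alone was lower. Each FPKM is scaled by the length of its own transcript, so the sum does not pool the fragments of the pair. INS, which overlaps the upstream end of IGF2, had 98.3 and 121 FPKM, and IGF2-AS, on the opposite strand, had 11.3 and 9.48 FPKM. SNURF, which shares promoter and exons with SNRPN, had 89.5 FPKM in the live and 76.9 FPKM in the processed library, lower as SNRPN was, at a ratio to SNRPN of 6.08 and 6.43. SNHG14, the paternally expressed RNA that runs antisense to UBE3A, had 44.02 FPKM in live (42.8 to 45.2) and 48.3 FPKM in processed cells (46.8 to 49.8), so that its ratio to UBE3A went from 1.99 to 3.05. AC090602.1, within SNRPN, had 1.48 and 1.97 FPKM, RP1-309F20.2, within GNAS, had 1.23 and 3.29 FPKM, and HERC3, which hosts NAP1L5, had 2.99 and 3.001 FPKM.

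**Figure D4:**
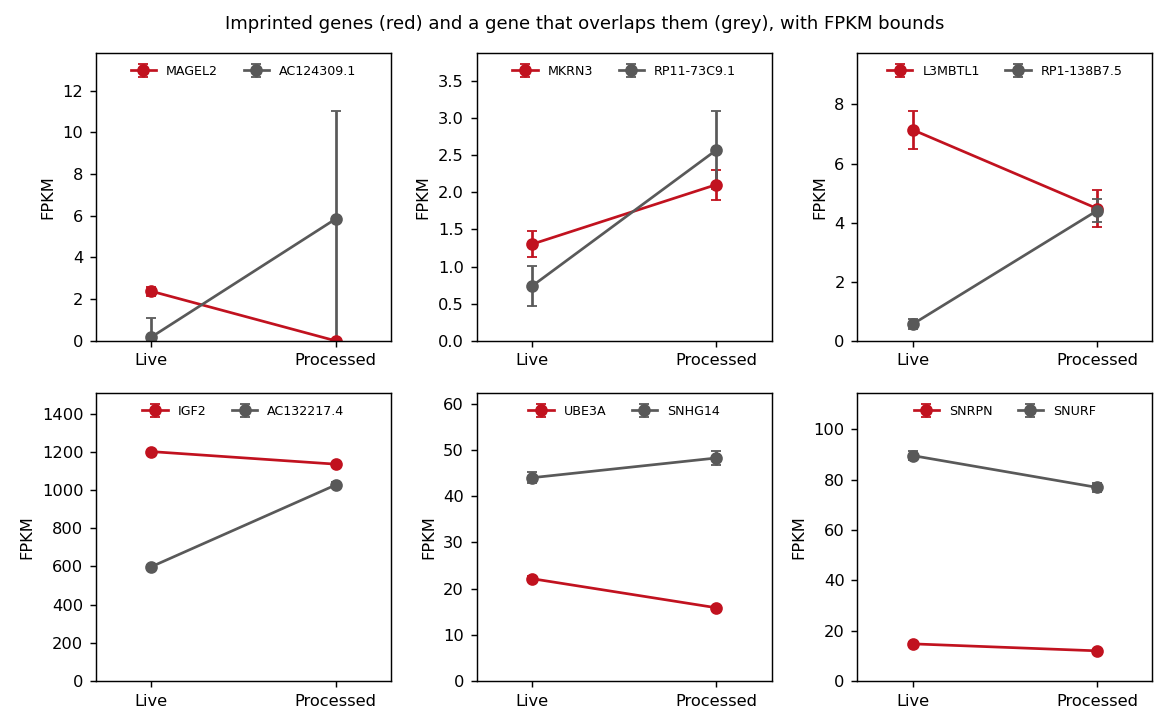
FPKM of 6 imprinted genes (red) and of 1 gene overlapping each (grey) in the live and processed library, with the deposited bounds and a separate axis from 0 in each panel. The lines of MAGEL2 and AC124309.1 cross, those of L3MBTL1 and RP1-138B7.5 meet at 4.48 and 4.41 FPKM, MKRN3 and SNRPN move with their partner, and IGF2 and UBE3A move against theirs.

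A further list of 63 imprinted genes and neighbours of imprinted genes was examined for comparison, of which 53 were found by name. Of its rows, 31 passed the filter; 12 were higher and 8 lower with separate bounds, beside 27.5% and 43.3% of all genes, and the median log2 ratio was 0.040. In the chromosome 14 cluster, RTL1, a retrotransposon-derived gene, had 11.3 and 10.9 FPKM with overlapping bounds, and DIO3, which inactivates thyroid hormone, had 9.02 and 10.6 FPKM. Around CDKN1C, TSSC4 was higher in processed cells, with 24.4 and 32.0 FPKM, NAP1L4 was lower, with 89.8 and 75.9 FPKM, and CD81 had 91.1 FPKM in each library. Beside SGCE and PEG10, CASD1 and PON2 were higher like them, with 18.1 and 23.5 FPKM and with 41.9 and 54.8 FPKM. Of the 5 members assigned to that cluster, 3 were higher and 2, PPP1R9A and DLX5, were lower, all with separate bounds. DDC, the aromatic amino acid decarboxylase next to GRB10, was the most elevated of those above 10 FPKM, with 19.5 and 31.3 FPKM. RB1, the retinoblastoma gene, was the most reduced of the genes above 10 FPKM, with 12.5 and 7.38 FPKM. Of the rest above 10 FPKM, ZNF331 (9.29 and 11.2 FPKM) was higher with separate bounds, NAA60 (33.3 and 24.6 FPKM) and MAGED1 (97.6 and 90.0 FPKM) were lower, and the bounds of HM13 (53.3 and 54.4 FPKM) and NDNL2 (15.0 and 14.3 FPKM) overlapped.

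Genes that act on methylation imprints were examined as a last list. Of 16 listed genes, 11 passed the filter; 1 was higher and 8 lower in processed cells with separate bounds, as were 27.5% and 43.3% of all genes, and their median log2 ratio was -0.20. The other 5, among them ZFP57 and CTCFL, had a mean below 1 FPKM. TRIM28, the corepressor that ZFP57 recruits, had 199.5 FPKM in the live and 179 FPKM in the processed library, and SETDB1, its histone methyltransferase partner, was higher, with 27.0 and 32.9 FPKM. The bounds overlapped for DNMT1, the maintenance DNA methyltransferase, with 47.7 and 48.6 FPKM, and for UHRF1, which guides it, with 22.2 and 21.6 FPKM. The de novo methyltransferases DNMT3A (40.7 and 30.2 FPKM) and DNMT3B (12.3 and 10.6 FPKM) were lower, as was CTCF, the insulator protein of the H19 control region, with 29.1 and 27.1 FPKM. ZNF445, a zinc finger protein that like ZFP57 protects imprints, was the most reduced of those above 10 FPKM, with 11.7 FPKM in live (11.3 to 11.98) and 6.95 FPKM in processed cells (6.71 to 7.19).

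**Figure D5:**
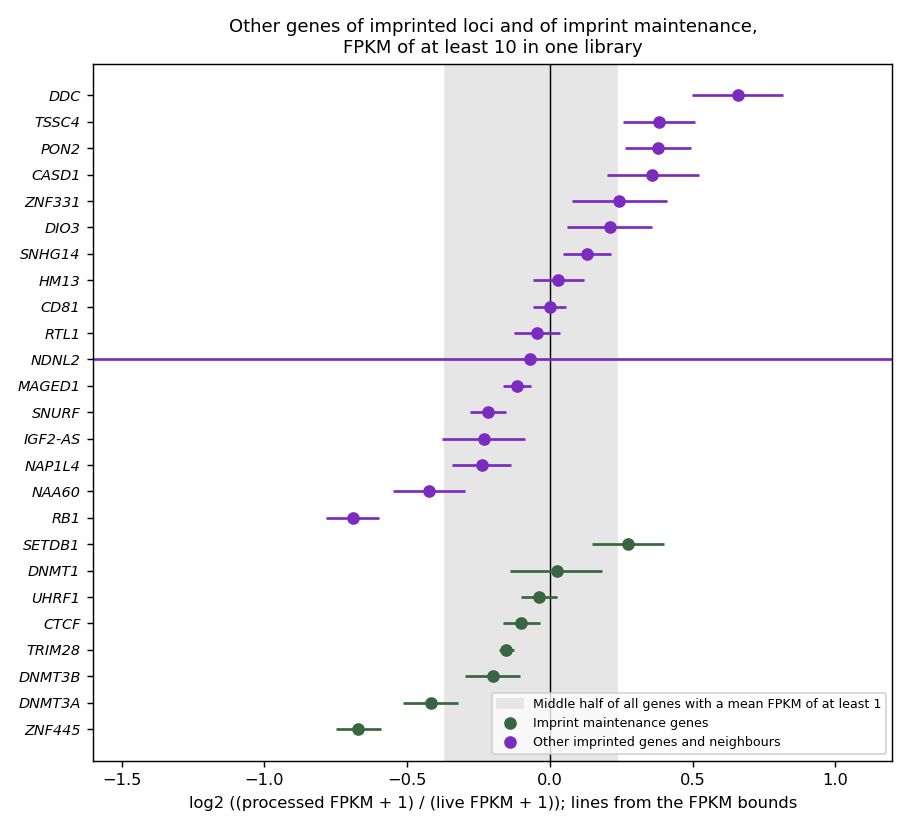
log2((processed FPKM + 1) / (live FPKM + 1)) of other genes of imprinted loci (purple) and of imprint maintenance genes (green) that reached 10 FPKM in either library; lines span the ratios that the FPKM bounds allow, and that of NDNL2 runs past both edges of the axis. The grey band is the interquartile range of all genes past the filter on low FPKM; DDC stands highest at 0.66, and RB1 and ZNF445 stand lowest at -0.69 and -0.67.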

How the data were processed

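RNA-seq of 1 live and 1 processed sample of H1-derived Stage 6 cells was used. Per the methods, paired-end 80 nt poly-A libraries were mapped with STAR 2.2.0c on GRCh37/hg19 using GENCODE version 14. The authors deposited, for each gene, an FPKM, its bounds and a status flag; the program is named Cuffdiff in the methods and Cufflinks 2.0.2 in the submitters' processing notes. FPKM is already normalized, so no count test was applied. Files were joined by gene identifier with Python 3.11.15 and pandas 2.3.3. Starts were shifted to count from 1. Genes entered comparisons with a mean FPKM over both libraries of at least 1, and ratios used a pseudocount of 1. Strand came from GENCODE release 44 mapped to GRCh37, a later release, which held 94.5% of the gene identifiers. Depth was read from steps in low FPKM of genes with 1 annotated transcript, with 170 nt taken off its length. Every listed member was named, with overlapping genes at a mean FPKM of at least 1 and genes of the 2 further lists at an FPKM of at least 10 in one library; other genes are named in the closing section as chosen after their values were seen. Members and lists were chosen with earlier results of these data known. The ratio and the calls were tested on simulated data. Parental allele, cluster and role of each member were assigned from general knowledge of these genes, not from the files.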

Additional observations from a re-analysis of the deposited data

How the results depend on the processing

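Direction and size were recomputed with a pseudocount of 0.1 or 10, other filters on low FPKM, genes of status OK, members free of overlaps, processed values divided by the median ratio and FPKM rescaled to the same sum. Across these, the sign of each of the 33 log2 ratios was unchanged with either pseudocount and with equal sums, while median scaling kept it for 30, the exceptions being BLCAP, IGF2 (0.020) and GNAS (0.016). Of the members each setting kept, 0 were counted as more than 2-fold higher under any of them; KCNQ1OT1, which the filter leaves out, has a log2 ratio of 1.46 with a pseudocount of 0.1. The 2 members more than 2-fold lower became 0 with a pseudocount of 10 or a mean FPKM of at least 10, and 1 among the 18 members without an overlapping gene or, in an alternative chosen after seeing the data, with MAGEL2 summed with AC124309.1. The 19 members lower with separate bounds became 11 at a mean FPKM of at least 10 and 9 among the 18 without overlaps, both subsets holding fewer genes. The median log2 ratio, -0.22, was -0.20 without a filter, -0.085 at a mean FPKM of at least 10, -0.069 without overlaps, -0.23 and -0.10 with pseudocounts of 0.1 and 10, -0.12 after median scaling, -0.19 with equal sums and -0.16 with MAGEL2 summed. Without H19 the share of summed FPKM was 0.990% in live and 1.01% in processed cells, and without mitochondrial genes in the denominator it was 1.90% and 2.196%. No paired analysis was possible because each condition has 1 sample. No library could be left out for the same reason, and the bounds describe each library alone.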

Other observations

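A few transcripts of imprinted loci outside the list differed widely between the libraries; they were chosen after their values were seen, and their cause was not tested. PWRN1, a noncoding RNA of the chromosome 15 cluster, had 3.84 FPKM in live (3.08 to 4.60) and 0.029 FPKM in processed cells. MEG9, in the chromosome 14 cluster, had 1.15 FPKM in live cells and was listed at 0 in processed cells, whereas MEG3 of the same cluster was higher there. A 2nd row named DIO3, inside the first, had 7.64 FPKM in the live and 1.5e-05 FPKM in the processed library, with the status LOWDATA and bounds in live cells from 0 to 1970. In the opposite direction, NLRP2 had 2.5e-04 FPKM in the live and 1.24 FPKM in the processed library, and ZNF597 had 0.647 and 2.08 FPKM. Among the imprint maintenance genes, TET3 had 6.64 FPKM in live (6.35 to 6.93) and 2.47 FPKM in processed cells (2.33 to 2.62). Of the genes of that list past the filter, which leaves out NLRP7, it was the 1 more than 2-fold lower.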
